A study of Mus musculus with 12 samples.

Results

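The transcripts of 36 genes that fold, survey and discard proteins in the endoplasmic reticulum (ER) were followed in mouse embryonic fibroblasts (MEFs), connective tissue cells grown from embryos. The genes were chosen by name: 11 chaperones and their helpers, 7 genes of disulfide bond formation, 2 subunits of the translocon that lets proteins into the ER, 11 genes of ER-associated degradation and 5 genes of stress sensing. All 36 symbols were in the deposited table of 23366 gene symbols, and all 36 were among the 13882 genes with enough counts to be tested. Wild-type cells and cells with a knockout of Carm1, an arginine methyltransferase that acts as a transcriptional coactivator, were each sampled at 0 h in DMEM with fetal bovine serum (rich) and after 18 h in DMEM without glucose but with dialyzed serum (starved). Each of these 4 groups had 2 RNA libraries. Per the labels all were C57BL/6 cells at passages 3 to 5. The groups compared for starvation therefore also differed in time and in dialysis of the serum. No label states whether replicates came from separate cultures or embryos, so the p-values cover the spread between these libraries, which may be technical. Which exons the knockout lacks was not stated.

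Proteins that enter the secretory pathway fold in the ER with the help of the Hsp70 chaperone BiP, the product of Hspa5, of the lectins calnexin and calreticulin, which hold glycoproteins, and of disulfide isomerases. BiP and its Hsp90 partner were first described as glucose-regulated proteins, and the sugar chains of glycoproteins are built from glucose metabolites. Unfolded proteins are sensed by the membrane proteins IRE1 (Ern1), PERK (Eif2ak3) and ATF6. IRE1 splices the Xbp1 transcript, PERK slows translation and raises ATF4, and ATF6 is cut in the Golgi to free a transcription factor. Proteins that fail to fold are extracted by the SEL1L and HRD1 (Syvn1) complex and destroyed by the proteasome.

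Levels are CPM, read counts scaled to a common library size. Changes are on the log2 scale, each with its SE and with the p-value of edgeR's quasi-likelihood test adjusted (Benjamini-Hochberg) over all genes tested. A gene is said to rise, fall or differ where the adjusted p was below 0.05. Gene counts ran from 8447014 (knockout rich replicate 1) to 28155431 per library. Carm1 stood at 206 ± 2.11 CPM (SD, n = 2) in wild-type rich and 59.4 ± 16.0 CPM in knockout rich cells, and at 169.9 ± 8.003 and 56.3 ± 3.35 CPM after starvation (-1.78 ± 0.19, adjusted p = 0.000376, and -1.59 ± 0.19, adjusted p = 0.000419). Among 9392 genes with a mean of at least 10 CPM, the SD of the log2 ratio between replicates was 0.155 to 0.163 in 3 groups and 0.77 in the knockout rich group. The same held for the ER genes: none of the 36 differed by more than 1.5-fold between replicates in the other groups, against 13 in the knockout rich group, of which 5 were higher in replicate 1 and 8 in replicate 2. Results that use this group are therefore given also without replicate 1, the shallower library; in that fit the spread comes from the 3 closer pairs alone, and calls are more numerous for all genes. The fibroblast label was checked against 11 marker genes, all above 1 CPM in some group, which summed to 7870 to 11000 CPM in wild-type and 15600 to 18800 CPM in knockout libraries. Fn1, Vim, Col1a1 and Col1a2 were abundant in all groups, but Thy1, Dcn, Lum and Postn had means below 1 CPM in both wild-type groups, against 129, 1663, 3.61 and 41.6 CPM in knockout rich cells. The summed level of 6 endothelial markers was 2.09 to 5.02 CPM in wild-type and 132 to 245 CPM in knockout libraries, the latter carried by Cdh5 (means of 140.1 CPM in knockout rich and 239 CPM in knockout starved cells). Kdr went the other way, with 1.80 and 3.98 CPM in wild-type and 0 and 0.0831 CPM in knockout rich and starved cells, Tek and Cldn5 were near 0, and Emcn was at 0 counts throughout. In wild-type and knockout libraries in turn, 6 leukocyte markers summed to 5.58 to 7.89 and 12.9 to 33.8 CPM, and 5 neural markers to 101 to 117 and 267 to 396 CPM, while epithelial and muscle markers summed to at most 3.88 and 5.64 CPM. The sums also moved with starvation: in knockout cells from 132 to 158 up to 242 to 245 CPM for the endothelial and from 267 to 268 up to 386 to 396 CPM for the neural list, and in wild-type cells from 11000 down to 7870 to 8070 CPM for the fibroblast list. Their part in the genotype and starvation differences below was not tested, and in such bulk samples fewer cells of a type and less RNA per cell cannot be told apart.

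Many promoters of ER chaperone genes carry the ER stress element, CCAAT and CCACG with 9 bases of any kind between them, which is bound by NF-Y and by ATF6 or XBP1. RefSeq promoter windows on GRCm38.p6, which run from 250 bases before to 50 bases after a transcription start, were matched by symbol or synonym for 29 of the 36 genes. Hyou1, Sil1, Manf, Sec61a1, Derl1, Erlec1 and Atf6 had no entry. The element was found on either strand in the windows of 10 of the 29 genes (34.5%), against 39 of 32851 windows of all genes (0.119%). Here and below the ER genes were counted by gene and the background by window, so the shares are unlike measures. The element was already known from promoters of ER chaperone genes, so the contrast is a description and not a test. The shorter ER stress element II, ATTGG and CCACG with 1 base between them, was in the windows of Herpud1 and Dnajb11 (6.9%, against 0.0365% of all windows). The ATF4 element, TGATGNAA, was in 1 of the 29, that of Herpud1 (3.45%, against 3.97%), and the core of the unfolded protein response element, TGACGTGG, in 0 (against 0.676% of all windows). None of these motif matches overlapped another within a window. The matches of both ER stress elements before the transcription start are printed with 20 bases on either side, 5′ to 3′ on the strand of the gene. They are the shared sequence against which the responses below can be read. The ATF4 match of Herpud1 is not printed. Capitals mark the NF-Y site (CCAAT, or ATTGG on the other strand) and the CCACG part (or CGTGG) of each element, and the match of Dnajb11 lay after the start and is not printed.
Hspa5, chr2:34772005-34772063, plus strand: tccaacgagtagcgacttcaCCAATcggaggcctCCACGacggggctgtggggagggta
Dnajc3, chr14:118937807-118937865, plus strand: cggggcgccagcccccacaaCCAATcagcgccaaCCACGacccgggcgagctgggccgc
Hsp90b1, chr10:86705618-86705676, minus strand: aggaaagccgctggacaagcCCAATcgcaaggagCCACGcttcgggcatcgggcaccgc
Hsp90b1, chr10:86705513-86705571, minus strand: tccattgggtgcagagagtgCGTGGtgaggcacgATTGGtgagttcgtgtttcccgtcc
Calr, chr8:84847055-84847113, minus strand: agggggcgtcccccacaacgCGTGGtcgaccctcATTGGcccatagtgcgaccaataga
Canx, chr11:50325780-50325838, minus strand: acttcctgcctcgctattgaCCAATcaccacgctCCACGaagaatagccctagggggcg
Pdia6, chr12:17266471-17266529, plus strand: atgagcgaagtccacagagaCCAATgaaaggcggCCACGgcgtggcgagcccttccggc
Creld2, chr15:88819500-88819558, plus strand: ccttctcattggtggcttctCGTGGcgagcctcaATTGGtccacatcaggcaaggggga
Ero1lb, chr13:12565662-12565720, plus strand: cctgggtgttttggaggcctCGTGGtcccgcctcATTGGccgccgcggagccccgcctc
Syvn1, chr19:6046512-6046570, plus strand: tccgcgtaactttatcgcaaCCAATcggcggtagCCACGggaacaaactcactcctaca
Derl3, chr10:75893222-75893280, plus strand: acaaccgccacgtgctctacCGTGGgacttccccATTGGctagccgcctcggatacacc
Herpud1, chr8:94386357-94386407, plus strand: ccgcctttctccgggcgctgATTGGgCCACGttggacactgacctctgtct
In bases before the start, given as negative numbers, the first base of a printed element lay between -212, in Hsp90b1, and -44, in Syvn1. The window of Hsp90b1 held a pair of elements. A match shows only that these letters are in the window, and binding was not measured.

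**Figure D1:**
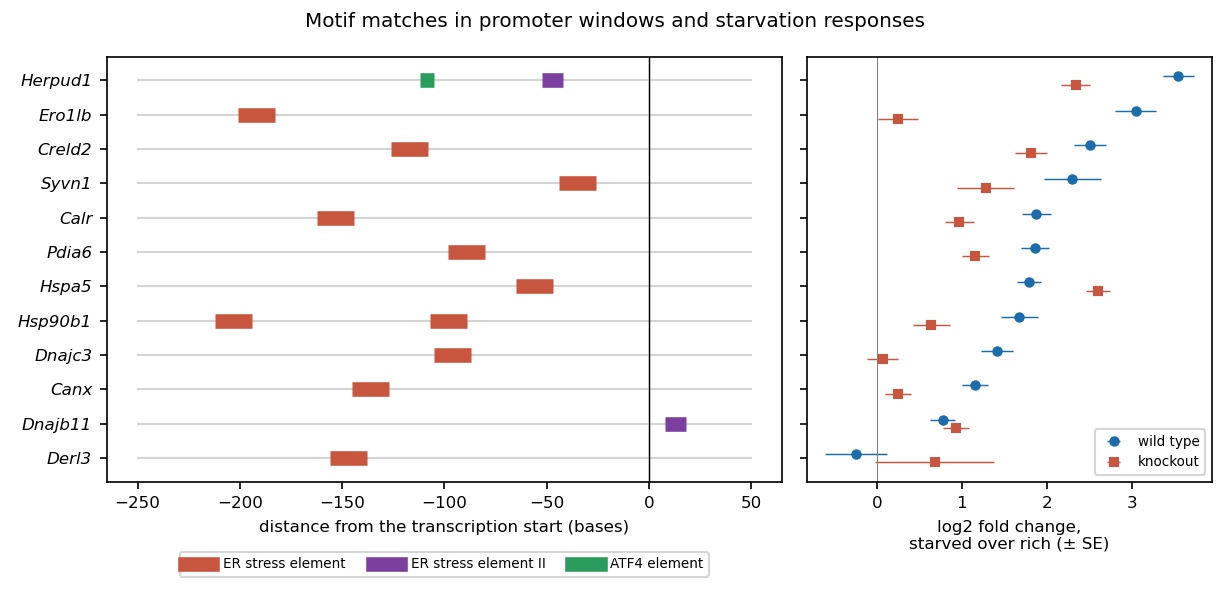
Left, positions of motif matches in the promoter windows of the 12 genes with either ER stress element, as distance from the transcription start in bases (line at 0), coloured by motif. Right, log2 fold change of starved over rich cells ± SE (n = 2 libraries a group) in wild-type (circles) and knockout cells (squares); from Herpud1 at 3.55 down to Dnajb11 at 0.77, wild-type responses were above 0, and Derl3, whose knockout value rests on 1 to 4 counts a library, stood at -0.24.

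Starvation of wild-type cells raised ER genes of each role except the translocon. Of the 36 genes, 29 rose and 0 fell, where 14.8% of all genes tested rose and 18% fell, and at an unadjusted p below 0.05 the counts were 30 and 0. The median log2 fold change was 1.36, against 0.00 over all genes tested. DESeq2 gave 30 and 0, and limma-voom with quality weights 32 and 1. Over all genes, in either direction, edgeR called 4560, DESeq2 5050 and limma-voom 9400, so the counts are unlike in their background. Together the 36 genes took 0.88% and 0.891% of all counts in wild-type cells in rich medium and 2.55% and 2.6% after starvation. All libraries of the 2 groups were apart for each gene, with 34 genes higher and 2, Sec61b and Derl3, lower in starved cells, where 41% and 40.8% of all genes tested did not overlap in those directions.

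All 11 chaperone genes rose. Hspa5, which encodes BiP, stood at 883 and 902.5 CPM in rich and 2979 and 3193 CPM in starved wild-type libraries, and at 554 and 647 CPM in rich and 3775 and 3535 CPM in starved knockout libraries. Both starved pairs lay above both rich pairs, and the wild-type rise was 3.46-fold (1.79 ± 0.14, adjusted p = 0.000346). Sdf2l1, a partner of BiP and of its J-domain proteins, went from 11.6 and 13.6 CPM to 90.8 and 96.7 CPM (2.89 ± 0.29, adjusted p = 0.00073). Among the J-domain proteins, which stimulate the ATPase of BiP, Dnajb9 went from 10.3 and 8.06 to 73.4 and 71.5 CPM (2.98 ± 0.46, adjusted p = 0.00347). The rise of Dnajb9 was thus 7.9-fold, that of Dnajc3 2.66-fold and that of Dnajb11 1.71-fold. Hyou1 and Sil1, which exchange the nucleotide of BiP, rose by 1.66 ± 0.26 and 1.37 ± 0.19 on the log2 scale. The Hsp90 family member Hsp90b1 and the lectins Calr and Canx rose by 1.68 ± 0.22, 1.88 ± 0.17 and 1.16 ± 0.16. Manf, a secreted protein that binds BiP, stood at 103 and 101 CPM in rich and 587 and 645.5 CPM in starved wild-type libraries, and at 91.1 and 80.4 CPM in rich and 238 and 219.6 CPM in starved knockout libraries. Its wild-type starved pair was the highest and its knockout starved pair the next, with no overlap, and the wild-type rise was 6.03-fold (2.59 ± 0.13, adjusted p = 0.000104).

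All 7 genes of disulfide formation rose as well. The isomerases P4hb, Pdia3, Pdia4 and Pdia6, which make and rearrange disulfide bonds, rose by 0.64 ± 0.12, 1.35 ± 0.20, 1.97 ± 0.12 and 1.86 ± 0.17. Creld2, which is induced by ER stress and binds isomerases, rose from 56.4 and 54.2 to 303 and 326 CPM (2.51 ± 0.19, adjusted p = 0.000317). The oxidases that reload the isomerases were Ero1l and Ero1lb. Ero1lb stood at 7.85 and 8.02 CPM in rich and 66.6 and 64.7 CPM in starved wild-type libraries, and at 13.4 and 8.11 CPM in rich and 11.8 and 13.2 CPM in starved knockout libraries. Only the wild-type starved pair was high, 8.27-fold above wild-type rich (3.05 ± 0.25, adjusted p = 0.000388), while the other 6 libraries lay between 7.85 and 13.4 CPM. Ero1l rose by 1.77 ± 0.15. The translocon subunits did not pass the test, with Sec61a1, the channel itself, at 0.52 ± 0.19 (adjusted p = 0.0752) and Sec61b at -0.46 ± 0.41 (adjusted p = 0.434).

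Of the 11 degradation genes, 7 rose and 0 fell, also at an unadjusted p below 0.05. Herpud1, a membrane protein of the degradation complex, stood at 59.1 and 50.9 CPM in rich and 647 and 643 CPM in starved wild-type libraries, and at 42.3 and 56.4 CPM in rich and 255 and 247 CPM in starved knockout libraries. The rich libraries of both genotypes overlapped, the wild-type starved pair was the highest, and the wild-type rise of 11.7-fold (3.55 ± 0.18, adjusted p = 8.94e-05) was the largest among the 36 genes. The core of the complex rose with it: Sel1l from 94.8 and 94.4 to 392 and 372 CPM (2.02 ± 0.12, adjusted p = 0.000135). Its ubiquitin ligase Syvn1 rose from 72.8 and 79.4 to 380.5 and 371 CPM (2.30 ± 0.34, adjusted p = 0.00292). The derlins Derl1 and Derl2, which help to move proteins back to the cytosol, rose by 0.89 ± 0.23 and 0.96 ± 0.12. Edem1 and Edem2, which trim mannose to mark glycoproteins for degradation, rose by 1.29 ± 0.13 and 0.70 ± 0.21. Edem3 and the lectins that read these trimmed chains, Os9 and Erlec1, did not pass the test, at 0.18 ± 0.19, 0.24 ± 0.12 and 0.30 ± 0.38. Derl3 had 17 to 20 counts in each wild-type library and 1 to 4 in each knockout library, and its starvation values rest on these. The call of Derl1 was lost without any of the 4 wild-type libraries or either knockout starved library (adjusted p up to 0.141 without one of them), and that of Edem2 likewise and on total counts (adjusted p up to 0.21). Of the other 27 wild-type calls, Dnajb11, P4hb and Ern1 were lost without some wild-type libraries (adjusted p up to 0.085, 0.0793 and 0.132).

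Among the 5 sensing genes, 4 rose and 0 fell. Atf6 rose by 1.41 ± 0.16, Xbp1 by 1.09 ± 0.15, Eif2ak3 by 0.95 ± 0.13 and Ern1 by 0.69 ± 0.16 (adjusted p = 0.0165), while the ATF6 relative Atf6b did not pass (0.14 ± 0.51, adjusted p = 0.87). The counts sum all reads of a transcript, so spliced and unspliced Xbp1 cannot be told apart. The median of the sensing genes was 0.95, beside 1.68 for the chaperones, 1.86 for the disulfide genes, 0.89 for the degradation genes and 0.03 for the translocon, as values side by side.

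**Figure D2:**
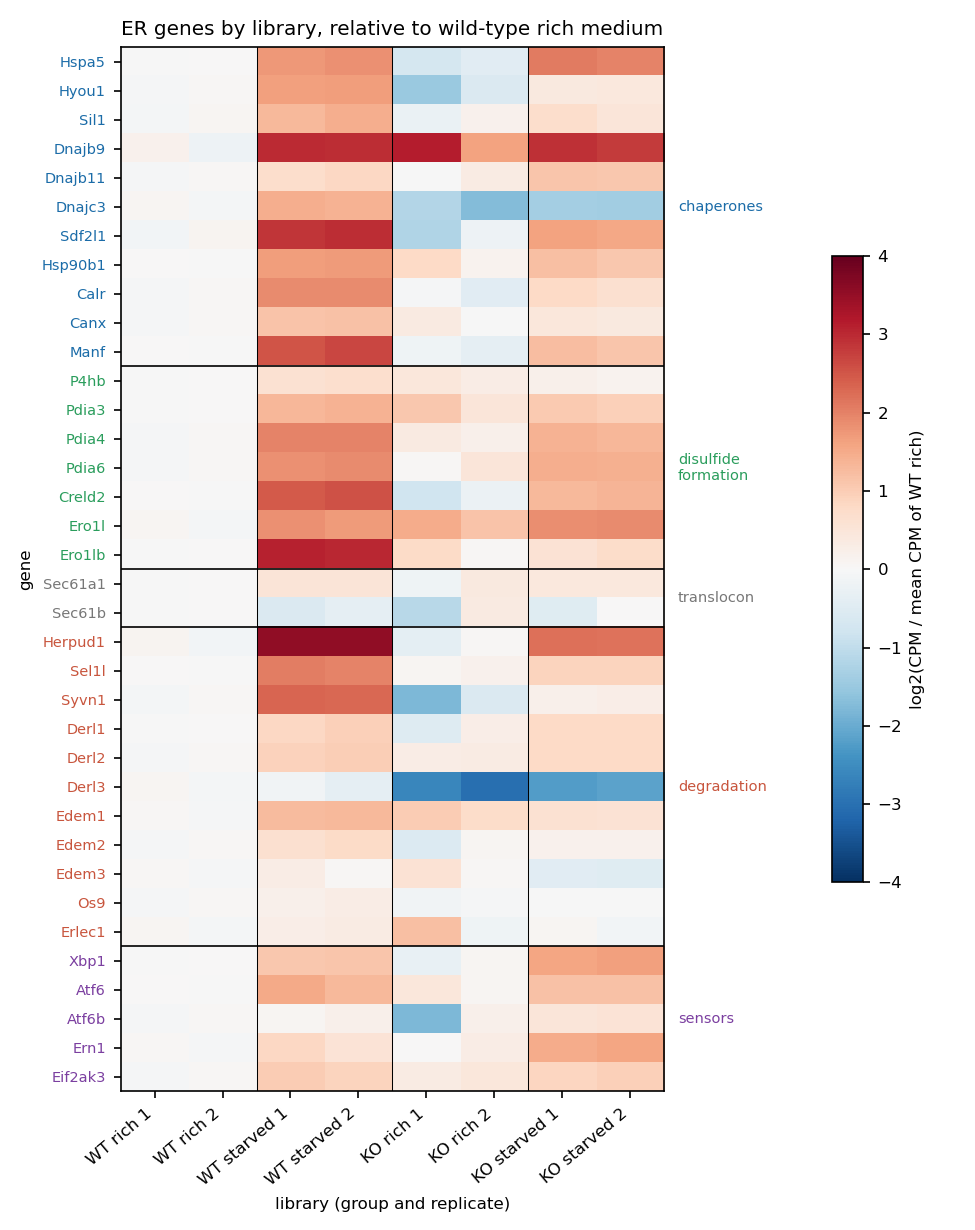
Colour shows log2 of the CPM in a library over the mean CPM of the wild-type rich group, for the 36 ER genes (rows, coloured and grouped by role) in the 8 libraries (columns). The wild-type starved columns are red for all genes but Sec61b and Derl3. The knockout starved columns are paler than these for most chaperone, disulfide and degradation genes. Knockout rich replicates 1 and 2 differ visibly for Atf6b, Erlec1, Syvn1 and Dnajb9.

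Starvation of knockout cells raised 19 of the 36 genes and lowered 1, where 8.44% and 9.77% of all genes tested rose and fell. The median log2 fold change was 0.66, against 0.00 over all genes tested. By role, 6 of 11 chaperones, 4 of 7 disulfide genes, 0 of 2 translocon genes, 5 of 11 degradation genes and 4 of 5 sensing genes rose. All 19 were among the 29 that rose in wild-type cells, and 10 rose in wild-type cells only by this count, a contrast that is tested itself further on. Over all genes tested, 498 rose in both genotypes and 1562 passed the test as higher in wild-type cells alone. Without knockout rich replicate 1 the median was 0.75, against 0.00 over all genes tested. Fewer of the 36 genes, and fewer of all genes tested, were called without either knockout starved library. In the edgeR fit of the 4 knockout libraries alone, 0 of 35 ER genes and 0 of all genes were called. At an unadjusted p below 0.05, 16 of the 35 were higher and 1 was lower in that fit.

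The largest knockout rise was that of Hspa5, 6.09-fold (2.61 ± 0.14, adjusted p = 0.000397; 2.52 without knockout rich replicate 1). Herpud1, Sdf2l1 and Creld2 followed with 2.34 ± 0.17, 2.16 ± 0.29 and 1.81 ± 0.19, where Sdf2l1 was at 1.81 without knockout rich replicate 1 and 2.81 without replicate 2. Xbp1 stood at 41.9 and 43.6 CPM in rich and 90.3 and 92.3 CPM in starved wild-type libraries, and at 35.0 and 45.4 CPM in rich and 126 and 134 CPM in starved knockout libraries. The knockout starved pair was the highest and the rich pairs overlapped, with a knockout rise of 1.69 ± 0.15, adjusted p = 0.00141. Ern1, the sensor that splices Xbp1, stood at 37.5 and 35.5 CPM in rich and 64.7 and 52.8 CPM in starved wild-type libraries, and at 37.0 and 45.0 CPM in rich and 102 and 108 CPM in starved knockout libraries. It too was highest in both knockout starved libraries (1.35 ± 0.16, adjusted p = 0.0033; adjusted p = 0.0511 without knockout starved replicate 2). Manf, Hyou1, Pdia6, Pdia4, Calr, Dnajb11 and Atf6 rose by 1.42 ± 0.13, 1.38 ± 0.26, 1.16 ± 0.16, 1.06 ± 0.12, 0.97 ± 0.17, 0.93 ± 0.15 and 0.90 ± 0.16. Sel1l and Syvn1 rose by 0.77 ± 0.11 and 1.28 ± 0.33, Derl1 and Derl2 by 0.87 ± 0.23 and 0.50 ± 0.12, and Eif2ak3 and Ero1l by 0.51 ± 0.13 and 0.54 ± 0.15. The last 5 of these calls, with adjusted p from 0.0327 to 0.046, were each lost under at least 1 other scaling, filter or tool, as was that of Edem3 below. All knockout starvation calls were lost in the fit of the 4 knockout libraries alone. Syvn1 also differed between the knockout rich replicates (22.0 and 50.9 CPM), and its knockout rise was 0.84 without replicate 1 and 2.03 without replicate 2.

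Several genes that rose in wild-type cells did not pass the test in the knockout. Dnajc3, whose product P58IPK is a BiP cofactor, stood at 128 and 116 CPM in rich and 331 and 317 CPM in starved wild-type libraries, and at 53.6 and 36.7 CPM in rich and 47.1 and 46.9 CPM in starved knockout libraries. Its 4 knockout libraries overlapped and all lay below the wild-type rich pair (0.06 ± 0.19, adjusted p = 0.852). The knockout change of Dnajc3 was 0.38 without knockout rich replicate 1 and -0.18 without replicate 2. Dnajb9 stood at 80.2 and 27.8 CPM in the knockout rich libraries and 69.8 and 64.5 CPM in the knockout starved ones. Those groups overlapped, and the change depended on the rich library used (0.33 ± 0.42 with both, 1.29 without replicate 1 and -0.25 without replicate 2). Ero1lb, at 0.24 ± 0.24, Pdia3, at 0.17 ± 0.19, and Erlec1, at -0.67 ± 0.38, overlapped likewise, and so did Sec61b (-0.03 ± 0.42, which became -0.54 without replicate 1 and 0.91 without replicate 2). Canx, Sil1 and Hsp90b1 had starved pairs above the rich pairs but did not pass (0.25 ± 0.15, 0.61 ± 0.19 and 0.64 ± 0.21), and passed without replicate 1 (0.48, 0.44 and 1.03). Without replicate 2 they were at 0.074 (adjusted p = 0.448), 0.87 and 0.36. Edem3 was the 1 gene that fell, from 127 and 88.0 to 62.6 and 61.0 CPM (-0.79 ± 0.19, adjusted p = 0.0299; -0.49, adjusted p = 3.05e-06 without replicate 1; adjusted p = 0.105 with limma-voom). Edem1 and P4hb had starved pairs below the rich pairs without passing (-0.28 ± 0.13 and -0.22 ± 0.12). The remaining Edem2, Os9, Sec61a1 and Atf6b were at 0.35 ± 0.21, 0.07 ± 0.12, 0.28 ± 0.19 and 0.98 ± 0.52, and Derl3 had 3 counts in all in the rich libraries. The value of Atf6b was 0.33 without replicate 1 and 2.33 without replicate 2, and passed in both of those fits, and its difference from wild type was 0.22 and 2.19.

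**Figure D3:**
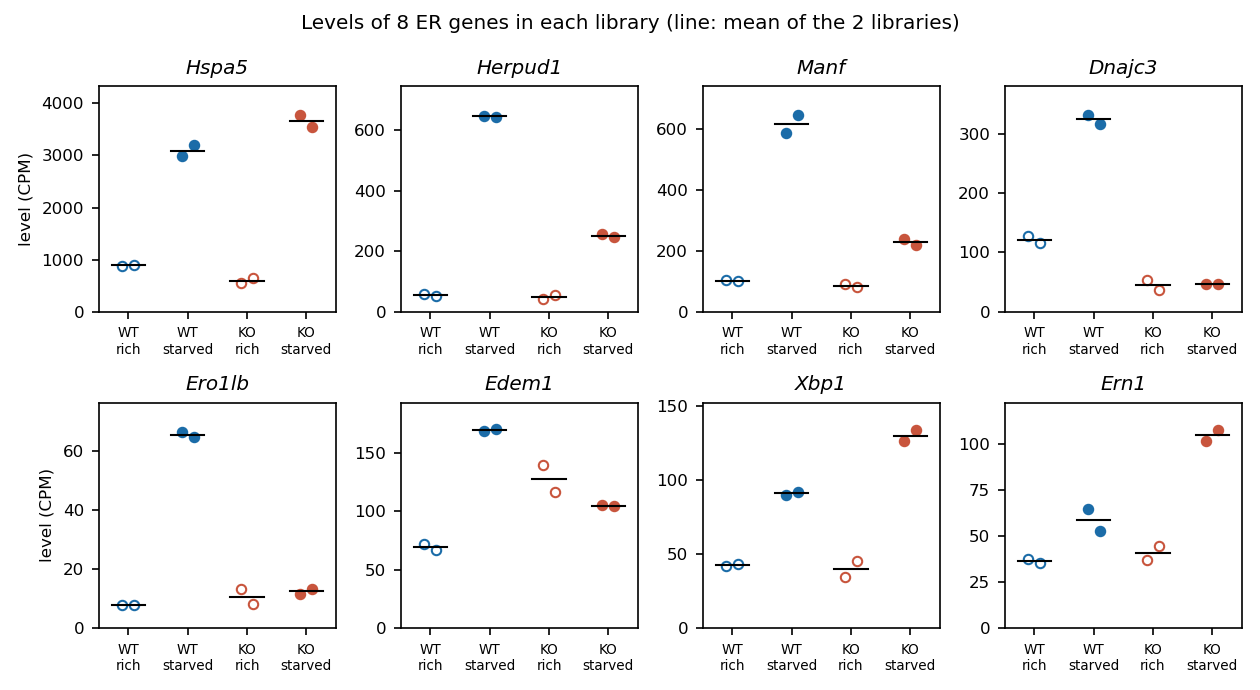
CPM of 8 ER genes in each library, by group, with both replicates as points (open, rich medium; filled, starved; blue, wild type; red, knockout) and a line at their mean; the axes start at 0 and differ between genes. Herpud1, Manf, Dnajc3, Ero1lb and Edem1 are highest in the wild-type starved pair, whereas Hspa5, Xbp1 and Ern1 are highest in the knockout starved pair.

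The difference between the starvation responses was tested as an interaction. The response was smaller in the knockout for 13 of the 36 genes and larger for 1, where 5.91% and 7.43% of all genes tested had a lower and a higher response. The median difference was -0.75, against 0.00 over all genes tested. Ero1lb differed by -2.80 ± 0.34, adjusted p = 0.00347, Edem1 by -1.57 ± 0.19, adjusted p = 0.00342 and Sel1l by -1.25 ± 0.16, adjusted p = 0.00425, and these 3 calls were kept in all alternatives run. Without knockout rich replicate 1 their differences were -2.38, -1.39 and -1.24. Dnajc3, Ero1l, Herpud1 and Manf differed by -1.35 ± 0.26, -1.23 ± 0.21, -1.21 ± 0.23 and -1.17 ± 0.18, and Dnajb9 by -2.65 ± 0.61 (-1.68 without replicate 1 and -3.24 without replicate 2). Pdia3, Calr, Pdia4, Canx and P4hb differed by -0.86 to -1.18, and the calls of Calr and Canx were lost with RLE factors (adjusted p = 0.0616 and 0.0509) and with a replicate block. Hspa5 was the 1 gene with a larger response in the knockout (0.82 ± 0.19, adjusted p = 0.035; 0.75 without replicate 1), and the call was lost with a replicate block (adjusted p = 0.0572). The differences of Xbp1 and Ern1, 0.60 ± 0.21, adjusted p = 0.114 and 0.66 ± 0.23, adjusted p = 0.1, did not pass, but did with DESeq2 (adjusted p = 0.0463 and 0.0492). The count of 14 fell without any wild-type or knockout starved library in turn and rose without either knockout rich library. The count over all genes tested moved in the same directions. In the fit without replicate 1 the median difference was -0.64, against 0.02 over all genes tested.

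**Figure D4:**
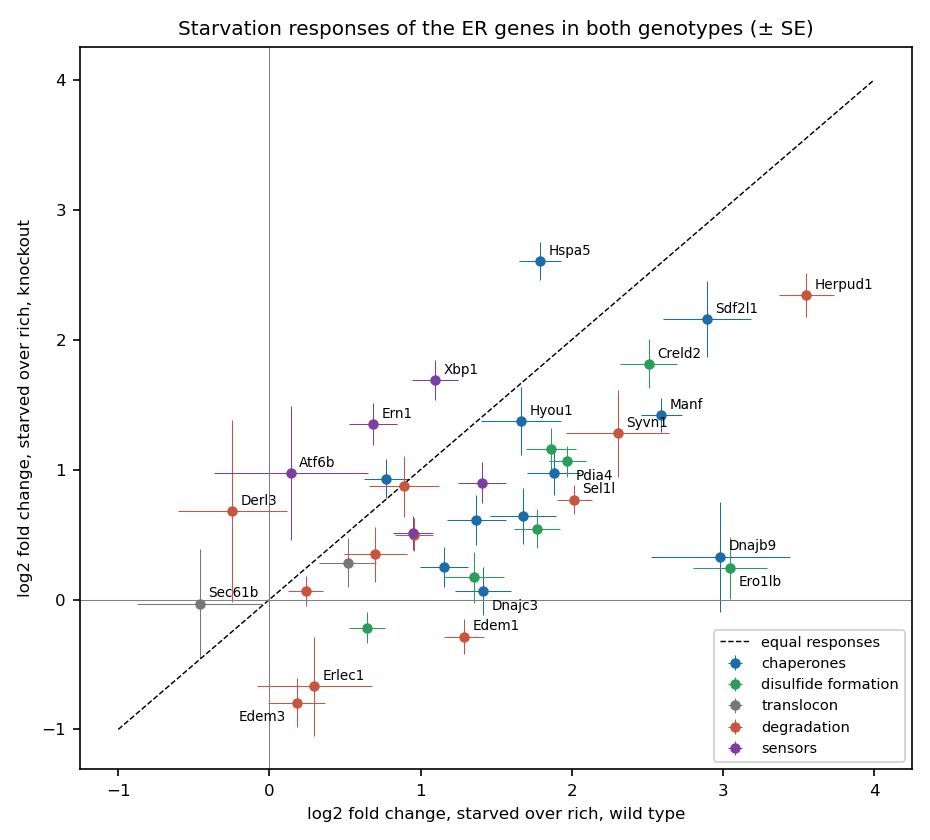
Each point is an ER gene, with its log2 fold change of starved over rich cells in the wild type (x) and in the Carm1 knockout (y), ± SE, coloured by role; the dashed line marks equal responses. Most points lie below the line, Hspa5, Xbp1 and Ern1 lie above it, and Dnajb9, Ero1lb and Edem1 lie near or below 0 on the knockout axis.

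After starvation the genotypes differed at 19 of the 36 genes, 17 lower and 2 higher in the knockout, where 54.6% of all genes tested differed, 26.8% lower and 27.8% higher. The share of ER genes that differed was thus near that of all genes, and the lower calls were the more frequent. This comparison shares its wild-type starved libraries with the wild-type starvation contrast, so its values are given only side by side with those above. The wild-type starved group had the highest mean of the 4 groups for 26 of the 36 genes (29.2% of all genes tested), the knockout starved group for 6. Dnajc3 was 6.89-fold lower in the knockout (-2.79 ± 0.19, adjusted p = 4.15e-05), Ero1lb 5.25-fold (-2.39 ± 0.24) and Syvn1 4.19-fold (-2.07 ± 0.34). Manf, Herpud1, Sdf2l1, Hyou1, Creld2, Calr and Sel1l were 2.17-fold to 2.69-fold lower, and Edem1, Canx, Sil1, Edem3, Pdia4 and P4hb 1.40-fold to 1.71-fold lower. Derl3 was lower too, with 17 counts in each wild-type and 4 in each knockout library (-1.89 ± 0.45, adjusted p = 0.0102), a call lost with DESeq2 (adjusted p = 0.0656). The 2 genes that were higher in the knockout were Ern1 (0.84 ± 0.16, adjusted p = 0.00377) and Xbp1 (0.51 ± 0.15, adjusted p = 0.023; adjusted p = 0.0746 on total counts). Leaving out single libraries also ended the calls of Xbp1, Derl3, Edem3, P4hb, Sil1 and Canx. That of Xbp1 was lost without any wild-type library and without either knockout starved one. Over the fits without single libraries its value ran from 0.47 to 0.55. Hspa5 stood 0.24 ± 0.14 from wild type without passing (adjusted p = 0.167), although both knockout libraries lay above both wild-type ones. All libraries were apart, lower in the knockout, for 28 genes (45.5% of all genes tested) and higher for 6 (44.1%). The median was -0.50, against -0.02 over all genes tested, and both stayed so without knockout rich replicate 1, a library this comparison does not use. The 4 starved libraries alone called 25 lower and 6 higher, and called 11038 genes in either direction over all genes tested in that fit. Pdia6, Hsp90b1, Pdia3, Edem2, Atf6 and Os9 were among those at a lower mean that did not pass with all libraries (-0.43, -0.53, -0.36, -0.54, -0.24 and -0.25).

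In rich medium the genotypes differed at 11 genes, 6 higher and 5 lower in the knockout, where 23.4% of all genes tested were higher and 20.7% lower, so the share of ER genes was below that of all genes in either direction. On total counts the split was 4 higher and 6 lower. Dnajb9 was higher in both knockout rich libraries than in either wild-type one (2.54 ± 0.45, adjusted p = 0.00395; 1.57 without replicate 1 and 3.13 without replicate 2). Ero1l went from 75.0 and 68.3 CPM in wild-type to 201 and 158 CPM in knockout cells (1.32 ± 0.15, adjusted p = 0.000531), and Edem1 from 72.2 and 66.6 to 139.7 and 116 CPM (0.88 ± 0.13). Pdia3, Eif2ak3 and P4hb were higher by 0.82 ± 0.20, 0.39 ± 0.13 and 0.38 ± 0.12, the last 2 at adjusted p of 0.0494 and 0.0382. The calls of these last 2 were each lost in 11 of the alternatives run, total counts among them, and kept in 5. Dnajc3 was lower (-1.44 ± 0.19; -1.77 without replicate 1), as were Syvn1 (-1.04 ± 0.33; -0.62, and -1.80 without replicate 2), Hyou1 (-0.97 ± 0.26; -0.63), Hspa5 (-0.57 ± 0.14; -0.51) and Derl3, which had 17 and 20 counts in wild-type and 1 and 2 counts in knockout libraries (adjusted p = 0.00639). The call of Derl3 was lost with limma-voom (adjusted p = 0.293) and without knockout rich replicate 2 (adjusted p = 0.102). The calls of Dnajb9, Dnajc3, Edem1 and Ero1l were kept in all alternatives run, whereas those of Hspa5, Hyou1, Pdia3 and Syvn1 were lost without either wild-type rich library. The median was 0.13 with all libraries and 0.07 without knockout rich replicate 1, against 0.00 and -0.03 over all genes tested. In rich medium 14 genes were higher and 9 lower in the knockout with no overlap (34.1% and 35.8% of all genes tested), and 13 overlapped, among them Herpud1, Xbp1, Ern1 and Canx. Atf6b, with 24.2 and 97.5 CPM in the knockout rich libraries against 82.2 and 87.6 CPM in the wild-type ones, was 0.16 without replicate 1 and -1.82 without replicate 2.

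Other genes of the ER were described from lists that do not overlap the 36, beside the 14.8% and 18% of all genes tested that rose and fell in wild-type and the 8.44% and 9.77% in knockout starvation. Of 36 further folding factors, 6 rose and 2 fell in wild-type starvation, and 2 rose and 4 fell in knockout starvation, with medians of -0.06 and 0.14. The membrane thioredoxins Tmx4 and Tmx2 rose in wild-type cells (1.38 ± 0.15 and 1.20 ± 0.13) and Cnpy4 fell (-1.07 ± 0.15), while the prolyl isomerases Fkbp14 and Fkbp7 and the Hsp70 family member Hspa13 fell in the knockout (-2.25 ± 0.26, -1.13 ± 0.26 and -1.03 ± 0.24). Of 29 further degradation factors, 10 rose and 0 fell in wild-type cells, and 5 and 0 in the knockout (12 and 1, and 10 and 0, at an unadjusted p below 0.05), with medians of 0.26 and 0.30. They included Vimp and Selk, selenoproteins of the degradation complex, and the deglycosylating enzyme Ngly1 (1.57 ± 0.17, 1.29 ± 0.16 and 0.88 ± 0.17 in wild type), and in the knockout the ubiquitin-conjugating enzyme Ube2g2, its recruiter Aup1 and Vimp (1.06 ± 0.17, 0.99 ± 0.17 and 0.89 ± 0.17). Aup1 rose in wild type too (0.72 ± 0.17). Of 19 other sensors and regulators, 4 rose and 3 fell in wild type and 2 and 2 in the knockout, with medians of 0.27 and 0.04. The ER membrane protein Wfs1 rose in both (1.84 ± 0.26 and 1.49 ± 0.26), and the ATF6-like factor Creb3l1 and the double-stranded RNA kinase Eif2ak2 fell in both (-1.36 ± 0.16 and -1.21 ± 0.16; -2.06 ± 0.28 and -1.14 ± 0.27).

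Among 9 genes listed as outputs of the PERK branch, 8 rose and 1 fell in wild-type cells. In the knockout 7 rose and 0 fell (8 and 0 at an unadjusted p below 0.05). Their medians were 2.19 in wild type and 2.43 in the knockout. Without knockout rich replicate 1 they were 2.18 and 1.85, so their order depended on that library. PERK activity was not measured. The pro-apoptotic factor Ddit3 rose by 4.71 ± 0.17 and 3.20 ± 0.16, and Ppp1r15a, which reverses the translational block, by 2.93 ± 0.30 and 3.84 ± 0.32. The pseudokinase Trib3 rose by 3.79 ± 0.50 and 2.43 ± 0.47, and the glutathione-degrading enzyme Chac1 by 2.19 ± 0.35 and 3.01 ± 0.37. Trib3 stood at 19.2 and 64.0 CPM in the knockout rich libraries, so its knockout value depends on the rich library used. Without knockout rich replicate 2 the knockout rises of Chac1 and Ppp1r15a were 3.86 and 4.47. Of 34 genes of ER entry and N-glycosylation, 10 rose and 4 fell in wild type and 5 rose and 1 fell in the knockout, with medians of 0.41 and 0.08. Krtcap2, a subunit of the oligosaccharyltransferase, rose in wild-type cells (1.22 ± 0.18), Srprb, of the signal recognition particle receptor, and Sec11c, of the signal peptidase, in both genotypes (1.07 ± 0.13 and 0.69 ± 0.13, and 0.95 ± 0.17 and 0.62 ± 0.17), while Tram2 fell in wild type (-1.13 ± 0.18) and Ssr1 in the knockout (-0.69 ± 0.16). Of 32 genes of ER to Golgi transport, 1 rose and 2 fell in wild type and 0 rose and 1 fell in the knockout (5 and 3, and 2 and 3, at an unadjusted p below 0.05), with medians of 0.03 and -0.05. These were Mcfd2, at 0.50 ± 0.13, the KDEL receptor Kdelr1 and the cargo receptor Tmed10, at -0.62 ± 0.19 and -0.39 ± 0.12, and Bet1 in the knockout, at -0.83 ± 0.20. Of 33 cytosolic and mitochondrial chaperones, 5 rose and 4 fell in wild type and 5 rose and 1 fell in the knockout, with medians of 0.04 and -0.06. Hsph1 and Hspa4, cytosolic partners of Hsp70, and the small heat shock protein Hspb8 fell in wild-type cells (-1.62 ± 0.15, -1.42 ± 0.23 and -1.40 ± 0.32), and in the knockout Hsph1 fell (-0.54 ± 0.15) and the chaperonin subunit Cct7 rose (0.72 ± 0.19). Mitochondrial Dnaja3 rose in both (1.05 ± 0.13 and 1.02 ± 0.13). The wild-type calls of Kdelr1, Mcfd2 and Tmed10 were each lost without any of 6 single libraries (adjusted p up to 0.201, 0.168 and 0.218), and those of Hspb8, Ngly1 and Tram2 without 4, 3 and 1. Among these genes the knockout calls of Fkbp7, Hspa13, Srprb, Ssr1, Sec11c, Bet1, Vimp, Hsph1 and Cct7 were lost with limma-voom, on total counts or both.

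**Figure D5:**
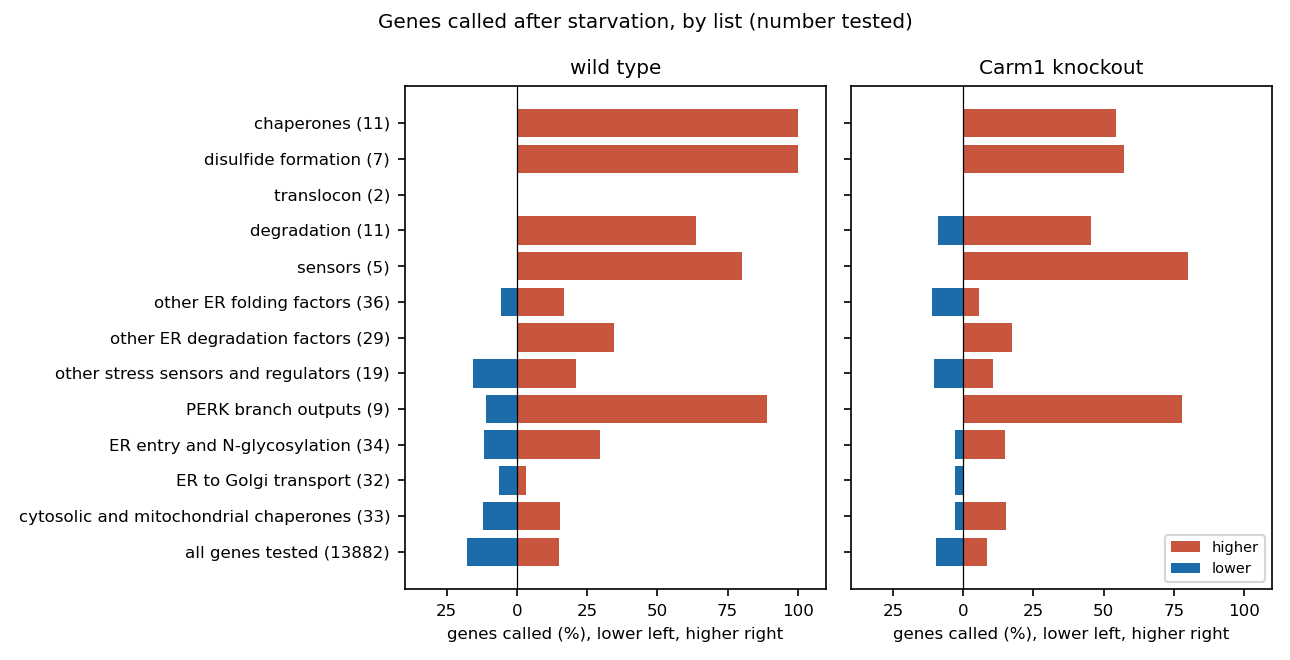
Percent of tested genes that rose (red, to the right) or fell (blue, to the left) after starvation in wild-type (left panel) and Carm1 knockout cells (right panel), for the 5 roles, 7 other lists and all genes tested, with the number tested in parentheses. The chaperones and disulfide genes reach 100% in wild type and 54.5% and 57.1% in the knockout, against 14.8% and 8.44% of all genes tested.

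The 12 genes with either ER stress element in their windows had a median wild-type response of 1.82 on the log2 scale, with 11 rising, and ranged from -0.24 in Derl3 to 3.55 in Herpud1. The 17 genes whose windows held neither had a median of 0.96, with 13 rising, and ranged from -0.46 in Sec61b to 2.98 in Dnajb9. In knockout cells the medians were 0.95, with 7 rising, and 0.50, with 8 rising. The ranges overlapped in both genotypes. As 1 example, Dnajc3 had the element at -105 to -87 from the start and Pdia6 at -98 to -80. They rose by 1.41 and 1.86 in wild type and stood at 0.06 and 1.16 in the knockout. Without knockout rich replicate 1 the knockout values were 0.38 and 0.98. The part of the element or its position in the responses was not tested. Both responses of Pdia6 and the wild-type response of Dnajc3 passed the test.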

How the data were processed

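RNA-seq of 8 libraries, 2 in each of 4 groups, was analysed from raw read counts per RefSeq transcript, which the authors deposited; the submitters' processing notes list mm9, TopHat2 2.0.9 and bedtools, and the counting rule and strand were not stated. Reads of overlapping or antisense genes cannot be told apart. Libraries of chromatin immunoprecipitation were not analysed here. For each symbol the transcript row with the highest total was kept (7 of the 36 genes have several), so isoforms are not summed. Genes were filtered with filterByExpr, scaled by TMM and fitted over all 8 libraries with edgeR 4.0.16 (R 4.3.3) quasi-likelihood tests, with 1 mean per group; Benjamini-Hochberg adjustment covered all 13882 genes, with a threshold of 0.05. The code was tested on simulated data. Alternatives used DESeq2 1.42.0, limma 3.58.1, other scalings and fits without single libraries. A replicate number shared by groups did not pair the samples, so no block was used. All 36 genes are named; from each other list up to 3 called genes per starvation contrast with the largest change and a group mean of at least 5 CPM. The members and lists were chosen with earlier results of these data known.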

Additional observations from a re-analysis of the deposited data

Results flagged for a closer look

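The starvation response differed between wild-type and knockout cells at 14 of the 36 ER genes in the edgeR interaction test, with values given as the knockout response minus the wild-type response on the log2 scale ± SE. Among the disulfide genes these were the oxidases Ero1lb (-2.80 ± 0.34, adjusted p = 0.00347) and Ero1l (-1.23 ± 0.21, adjusted p = 0.0126). The isomerases were Pdia3 (-1.18 ± 0.28, adjusted p = 0.0338), Pdia4 (-0.91 ± 0.17, adjusted p = 0.0158) and P4hb (-0.86 ± 0.17, adjusted p = 0.0197). Among the degradation genes they were Edem1 (-1.57 ± 0.19, adjusted p = 0.00342), Sel1l (-1.25 ± 0.16, adjusted p = 0.00425) and Herpud1 (-1.21 ± 0.23, adjusted p = 0.0174). Among the chaperones and their helpers they were Dnajb9 (-2.65 ± 0.61, adjusted p = 0.0327), Dnajc3 (-1.35 ± 0.26, adjusted p = 0.0181) and Manf (-1.17 ± 0.18, adjusted p = 0.00823). The lectins Calr (-0.91 ± 0.24, adjusted p = 0.0477) and Canx (-0.91 ± 0.22, adjusted p = 0.0382) were also among them, and their calls were lost with RLE factors and with a replicate block. The 1 positive value was that of Hspa5 (0.82 ± 0.19, adjusted p = 0.035), whose fold was larger in the knockout, from a rich level below that of wild type and to a starved level that did not pass the test against wild type. The call of Hspa5 was also lost with a replicate block, and of the 14 calls only 3, those of Ero1lb, Edem1 and Sel1l, were kept in all settings run. All 14 use the knockout rich pair, in which Dnajb9 stood 2.89-fold apart, and the part of that spread in the differences was not tested.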

How the results depend on the processing

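Calls over the 36 ER genes (29, 20, 11, 19 and 14 for wild-type starvation, knockout starvation, rich genotypes, starved genotypes and the difference) were recomputed with RLE factors, on total counts, without a filter, with DESeq2, limma-voom, a replicate block and the lowest transcript row, on the 4 libraries compared (not for the difference, which needs all 8), and without each library in turn. The wild-type count stayed within 1.5 times of 29 under all of these (24 to 34). Leaving out single libraries gave 6 to 30 for knockout starvation (7 and 6 without knockout starved replicate 1 or 2), 5 to 27 for rich genotypes (5 without either wild-type rich library, 22 and 27 without knockout rich replicate 1 or 2), 13 to 31 for starved genotypes (30 and 31 without knockout rich replicate 1 or 2) and 3 to 30 for the difference (30 without either knockout rich library). The 4 libraries alone gave 0 for knockout starvation (35 genes tested, smallest adjusted p 0.0583), 5 for rich and 31 for starved genotypes. Over all genes the 4 knockout libraries alone also gave 0 for knockout starvation. With limma-voom the count for starved genotypes was 29. The cause of these shifts was not tested. Of the calls, 24 of 29, 0 of 20, 4 of 11, 13 of 19 and 3 of 14 were kept in all settings. Calls over all genes tested were also more numerous without either knockout rich library and fewer without any other library, so these counts are no trait of the ER genes. Replicate numbers do not pair the samples: same-numbered deviations correlated at -0.0255 to 0.063 over 13882 genes, and a replicate block gave 29, 18, 9, 19 and 11 calls. Without single libraries some uncalled log2 values changed sign (lowest to highest). For starvation in knockout cells the signs that turned were those of Dnajb9 (-0.25 to 1.29), Dnajc3 (-0.18 to 0.38), Pdia3 (-0.085 to 0.51), Ero1lb (-0.095 to 0.64), Sec61b (-0.54 to 0.91) and Erlec1 (-1.20 to 0.18). In rich medium they were those of Sil1 (-0.28 to 0.13), Dnajb11 (-0.023 to 0.29), Canx (-0.069 to 0.36), Ero1lb (-0.012 to 0.75), Sec61a1 (-0.20 to 0.36), Sec61b (-1.12 to 0.31), Derl1 (-0.54 to 0.21), Edem2 (-0.55 to 0.028), Erlec1 (-0.21 to 1.19), Xbp1 (-0.30 to 0.043) and Atf6b (-1.82 to 0.16). For starved genotypes they were those of Sec61b (-0.0094 to 0.47) and Eif2ak3 (-0.11 to 0.0095). For the difference between the responses they were those of Hyou1 (-0.62 to 0.24), Sec61a1 (-0.45 to 0.10), Sec61b (-0.060 to 1.37), Derl1 (-0.31 to 0.44) and Edem2 (-0.57 to 0.014). Other sign changes were Sec61b with the block (0.053, knockout starvation), Sil1 and Derl1 with limma-voom (0.061 and 0.020, rich), Ero1l on total counts (-0.021, starved), and the difference of Derl1 without a filter and with the block (0.016 and 0.017). Depth limited Derl3, with 1 to 4 counts in each knockout library; 3 counts correspond to 0.107 to 0.355 CPM.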
